A study of Mus musculus with 2 samples.

Results

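Melanocytes are the pigment cells of the skin, and in the mouse coat most of them sit in hair follicles among the keratinocytes that they supply with pigment. The genes described here are 10 genes that mark this cell type (Tyr, Tyrp1, Dct, Mlana, Mitf, Slc45a2, Slc24a5, Oca2, Kit and Sox10), chosen by name, of 34820 names on the arrays. They are read by 13 of the 55676 probes tested. All non-control probes whose name in the array files is one of these genes were taken. None of the 13 probes passed the test for a difference between SOX11-induced and control epidermis (adjusted p under 0.05, limma, with variances moderated over all probes). The highest mean log2 ratios were those of Tyrp1 and of a Mitf probe, and the lowest was that of Slc45a2.

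Each of the 2 arrays set 1 SOX11-induced pup (K14-rtTA;TRE-Sox11-FLAG) against 1 littermate control (K14-rtTA) of the FVB/N strain at postnatal day 4.5, and both pups of a pair had received doxycycline (Dox) for 12 h. The keratin 14 promoter drives rtTA, the Dox-dependent activator, in keratin 14 positive keratinocytes, so the transgene is not aimed at melanocytes. The RNA came from epidermis separated from dorsal skin, and each channel of an array is 1 pup. Control RNA carried Cy3 and SOX11-induced RNA carried Cy5 on both arrays, so a dye effect and a genotype effect on a single probe cannot be told apart. The log2 ratio given below is SOX11-induced over control, and a pair is 1 array.

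Melanocytes arise from the neural crest. SOX10 and MITF are the DNA-binding proteins that specify them, and KIT is the receptor through which KIT ligand from keratinocytes keeps them alive and guides their migration. MITF binds a short sequence, the M-box, in front of the genes for the melanin-making enzymes TYR, TYRP1 and DCT, which work in the melanosome, the pigment organelle. FVB/N is an albino strain that carries a loss-of-function allele of Tyr, so that its melanocytes are present but make no melanin.

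The M-box core is shown for the enzyme genes because these are the genes through which MITF activity is usually read. RefSeq promoter windows of 300 bases on GRCm38.p6, from 250 bases before to 50 after each start site, were matched for 7 of the 10 genes (10 windows). Mlana, Slc45a2 and Sox10 were not matched. The letters TCATGTG, searched on both strands, lay in 4 of the 10 windows, those of Tyr, Tyrp1, Dct and Slc24a5, and in 3.77% of all 32851 windows. The match began 22 bases before the start site in Tyr, 47 bases before it in Tyrp1, and 151 and 232 bases before it in Dct. The stretches below run 5′ to 3′ on the strand of the gene for 60 bases each, and capitals mark the M-box core.
Tyr, chr7:87493513-87493572, minus strand: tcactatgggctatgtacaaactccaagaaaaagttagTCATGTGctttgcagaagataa
Tyrp1, chr4:80834140-80834199, plus strand: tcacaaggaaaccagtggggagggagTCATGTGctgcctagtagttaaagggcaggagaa
Dct, chr14:118052364-118052423, minus strand: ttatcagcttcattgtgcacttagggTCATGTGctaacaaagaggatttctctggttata
SOX proteins, SOX10 and SOX11 among them, bind short A- and T-rich sites. AACAAAG lay in 1 of the 10 windows (Dct, 142 bases before the start site) and in 5.85% of all windows, and AACAATG in 0 of the 10 and in 3.78% of all. These motifs do not overlap the M-box core in the Dct stretch. A match is a description of the sequence, and binding was not measured here.

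Across the arrays, 37.5% to 42.6% of spots were well above background in a channel, and pairs 1 and 2 correlated with a Pearson r of 0.68 over the 21782 probes above background on both arrays. These probes are not independent replicates. Neither of the 2 Sox11 probes was well above background in any channel, so the induction itself could not be checked with them. The pairs differed in sex-linked transcripts, with 2 of 2 Xist probes above background in both pups of pair 1 and 0 in those of pair 2, and 0 of 5 Y-linked probes in pair 1 and 3 in pair 2. Of the 13 melanocyte probes, 11 probes of 9 genes were well above background in all 4 pups. The defining markers of melanocytes were therefore measured in every sample, other than Oca2. In whole epidermis, fewer melanocytes and less RNA per melanocyte cannot be told apart.

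Sox10 and Mitf were read first, as the regulators of the lineage. The Sox10 probe (chr15:78985518-78985577 on mm9, the build of all probe positions) had a normalized log2 signal of 7.15 in the control and 7.55 in the SOX11-induced pup of pair 1, and of 7.86 and 7.89 in pair 2. Both pups of pair 2 were above both pups of pair 1, and within pairs the difference was 0.40 and 0.04. The mean log2 ratio of 0.22 ± 0.26 (SD, n = 2) did not pass the test (adjusted p = 0.476, limma).

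Mitf was read by 2 probes that lie 2.73 kb apart on chromosome 6. Mitf probe A (chr6:97971229-97971288) had log2 signals of 9.36 and 10.27 in the control and SOX11-induced pups of pair 1, and of 10.38 and 10.72 in those of pair 2. The SOX11-induced pup was the higher one in both pairs, and the groups overlapped, since the control of pair 2 lay above the SOX11-induced pup of pair 1. The log2 ratios were 0.91 and 0.34, with a mean of 0.62 ± 0.40 (SD, n = 2), a 95% interval of 0.23 to 1.02 and an adjusted p of 0.0832 (limma). With a normexp offset of 50 in place of 16 the adjusted p was 0.0279. Mitf probe B (chr6:97968501-97968560) had log2 signals of 8.61 and 9.05 in pair 1 and of 9.79 and 9.63 in pair 2, in the same order of control and SOX11-induced. Its ratios had opposite signs, 0.44 and -0.15, with a mean of 0.14 ± 0.42 (SD, n = 2) and an adjusted p of 0.698 (limma). The probes of this gene thus differed in size, and both were higher in pair 2 than in pair 1 when the pups of a pair were averaged, by 0.74 and 0.88 on the log2 scale.

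The Kit probe (chr5:76052394-76052453, 2 spots) had log2 signals of 6.79 and 7.23 in the control and SOX11-induced pups of pair 1 and of 7.19 and 7.12 in those of pair 2. The control of pair 1 was the lowest of the 4 pups, and the other 3 lay close together. The log2 ratios were 0.44 and -0.08, averaging 0.18 ± 0.37 (SD over 2 pairs), with an adjusted p of 0.596 (limma). Its 2 spots gave 0.36 and 0.53 in pair 1 but -0.28 and 0.11 in pair 2, so the sign in pair 2 differed between spots. Kit is also made by mast cells, and of 11 mast cell genes 9 were not above background in any channel. A probe of Tpsb2, a mast cell tryptase, was above background in both SOX11-induced pups and in neither control. Its log2 signals were 5.76 and 6.16 in the control and SOX11-induced pups of pair 1 and 5.86 and 6.58 in those of pair 2. The SOX11-induced signal was the higher one in both pairs, but the probe did not pass the test (adjusted p = 0.0840, limma). The other Tpsb2 probe was not above background in any pup. Cpa3, of the same list, was above background only in the control of pair 1. SOX10 is also made by Schwann cells. Of 13 Schwann cell and neural crest genes, 6 were above background on both arrays, with median log2 ratios of 0.06 and -0.00 in pairs 1 and 2, and 6 were not above background in any channel. The 1 probe of this list that passed the test, for the myelin gene Mbp (adjusted p = 0.0173, limma), was not above background in any pup, and no fold is given for it. Summed over the genes, the mast cell markers reached log2 signals of 8.58 to 8.64 in the controls and 8.65 to 8.75 in the SOX11-induced pups. With 9 of these 11 genes above background in no channel, that sum is largely background signal. The Schwann and neural crest markers summed to 11.9 to 12.0 in the controls and 12.0 in both SOX11-induced pups. The part of mast cells and Schwann cells in the Kit and Sox10 values was not tested.

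**Figure D1:**
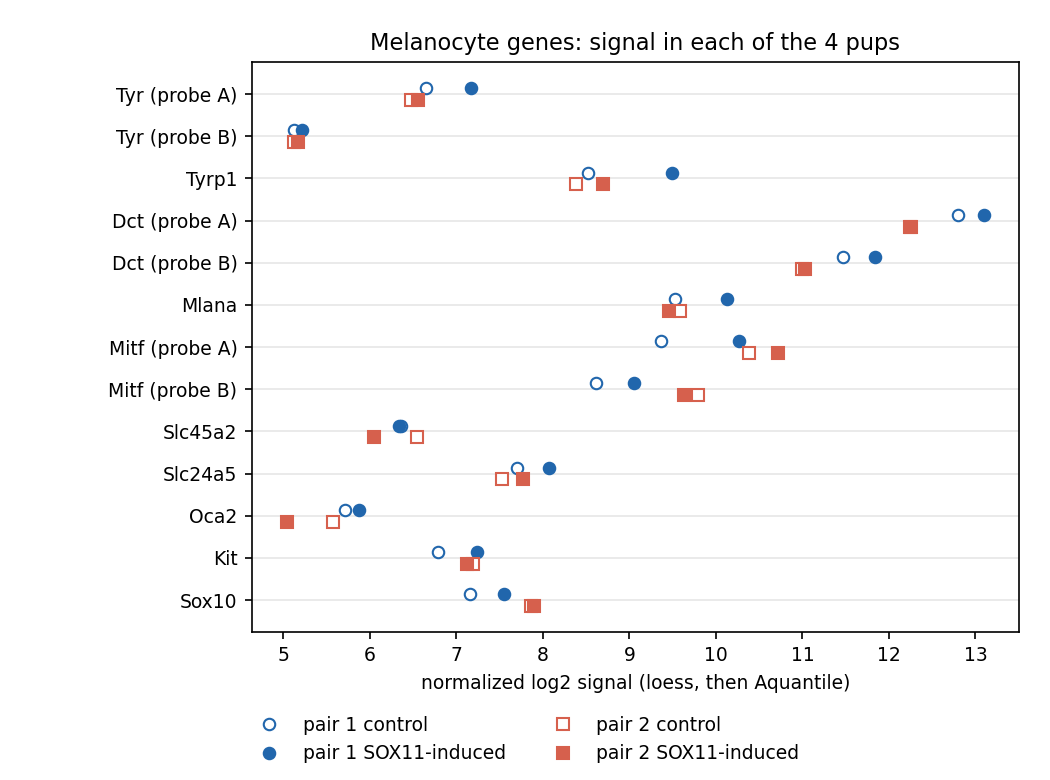
Normalized log2 signal (x axis) of each of the 13 melanocyte probes (y axis) in each of the 4 pups, with open symbols for controls, filled symbols for SOX11-induced pups, circles for pair 1 and squares for pair 2. Both Mitf probes and Sox10 were higher in both pups of pair 2, and Tyr probe B and Oca2 lie at the dim end; levels of different probes are not comparable.

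Of the enzymes, Tyrp1 had the highest mean ratio. TYRP1 acts on an intermediate of eumelanin synthesis and stabilizes tyrosinase. Its probe (chr4:80497524-80497583) had log2 signals of 8.53 and 9.50 in the control and SOX11-induced pups of pair 1, and of 8.38 and 8.69 in those of pair 2. Both SOX11-induced pups were above both controls, so the groups did not overlap. The groups were also apart for Slc24a5, in the same direction, and for Slc45a2, with both SOX11-induced pups below both controls. The share of all probes whose groups are apart was not counted. The log2 ratios were 0.97 and 0.31, with a mean of 0.64 ± 0.47 (SD, n = 2), a 95% interval of 0.22 to 1.05 and an adjusted p of 0.088 (limma). With a normexp offset of 50 the adjusted p was 0.0409, and with median centring in place of loess it was 0.000991. The adjusted p was 0.106 with median spot signals, 0.104 with the authors' log2 ratios and 0.0932 with only probes above background. It was 0.462 with the processed signals of the scanner software (limma in each setting).

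Tyr encodes tyrosinase, the rate-limiting enzyme of melanin synthesis. Tyr probe A (chr7:94632414-94632473 on mm9, minus strand) lies in the coding sequence, and its 60 bases are printed because it is the Tyr probe that gave a signal above background. 
Tyr probe A: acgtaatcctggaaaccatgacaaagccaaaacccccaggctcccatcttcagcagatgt
Tyr probe A had log2 signals of 6.65 and 7.17 in the control and SOX11-induced pups of pair 1, and of 6.47 and 6.56 in those of pair 2. The SOX11-induced pup was the higher one in each pair, but that of pair 2 was below the control of pair 1. The log2 ratios were 0.52 and 0.09, averaging 0.30 ± 0.31 (SD over 2 pairs), with an adjusted p of 0.329 (limma). Tyr probe B (chr7:94576265-94576324), printed on the array as 10 spots, was not well above background in any pup, and no fold is read from it. Its spots show the technical spread near background, with log2 ratios from -0.18 to 0.85 over the spots of array 1 (SD 0.28) and from -0.48 to 0.30 over those of array 2 (SD 0.23).

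Dct encodes dopachrome tautomerase, which acts between tyrosinase and TYRP1 and already marks melanocyte precursors. Dct probe A (chr14:118412029-118412088) had log2 signals of 12.80 and 13.10 in the control and SOX11-induced pups of pair 1 and of 12.25 in both pups of pair 2. Both pups of pair 1 were above both pups of pair 2, and the pups of pair 2 had nearly the same signal, so that the log2 ratio was 0.29 in the first pair and 0.00 in the other. The mean log2 ratio was 0.15 ± 0.21 (SD, n = 2, adjusted p = 0.635, limma). Dct probe B overlaps probe A by 44 bases and is not an independent measurement. Its log2 ratios were 0.36 and 0.04, averaging 0.20 ± 0.23 (SD over 2 pairs), with an adjusted p of 0.503 (limma).

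The transporter genes among the melanocyte genes had ratios of both signs, none of which passed the test. The Slc24a5 probe (chr2:124913773-124913832), for a potassium-dependent sodium and calcium exchanger, had log2 signals of 7.70 and 8.07 in the control and SOX11-induced pups of pair 1 and of 7.53 and 7.77 in those of pair 2. Its ratios of 0.37 and 0.24 were the closest to each other among the melanocyte probes above background, averaging 0.31 ± 0.09 (SD over 2 pairs), with an adjusted p of 0.280 (limma). The Slc45a2 probe (chr15:10958929-10958988), for a transporter needed for tyrosinase activity in the melanosome, had signals of 6.36 and 6.34 in pair 1 and of 6.54 and 6.05 in pair 2. It was the 1 probe above background with a ratio below 0 in both pairs, -0.02 and -0.49, and it averaged -0.25 ± 0.34 (SD over 2 pairs, adjusted p = 0.424 in limma). Under median centring in place of loess the mean turned to 0.010. Oca2 encodes the anion channel of the melanosome. Its probe (chr7:63791667-63791726) was well above background only in the SOX11-induced pup of pair 1, and no fold is read from it.

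MLANA is a small melanosome membrane protein that works with PMEL in the early melanosome. The Mlana probe (chr19:29782737-29782796) had log2 signals of 9.53 and 10.13 in the control and SOX11-induced pups of pair 1 and of 9.58 and 9.45 in those of pair 2. The SOX11-induced pup of pair 1 stood above the other 3 pups. The log2 ratios were 0.60 and -0.13, averaging 0.24 ± 0.52 (SD over 2 pairs), with an adjusted p of 0.523 (limma).

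Counted over the 13 probes, 0 had an adjusted p under 0.05, against 4.39% of all probes tested, and 0 were also past a log2 ratio of 1.5 in either direction, against 0.453%. Among probes above background on both arrays, 9.99% had an adjusted p under 0.05 (limma). At an unadjusted p under 0.05 there were 2 of the 13 melanocyte probes, Tyrp1 and Mitf probe A, against 21.1% of all probes tested. With an offset of 50 these 2 probes passed the adjusted p, as did 7.91% of all probes, and with median centring 10 of the 13 did, as did 33.2% of all probes. The widest 95% intervals of the 11 melanocyte probes above background reached from -0.63 to 1.05.

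The pairs differed in the size of the ratio. All 11 melanocyte probes above background had a higher ratio in pair 1 than in pair 2, by 0.13 to 0.73 on the log2 scale, which held for 49.9% of all probes above background. The median log2 ratio of the 11 probes was 0.44 in pair 1 and 0.04 in pair 2, and 0.22 for the mean of the pairs. The corresponding medians over all probes above background were 0.04, 0.03 and 0.04. A ratio above 0 in both pairs was found for 7 of the 11 probes, against 41.0% of all probes above background, 3 had opposite signs and 1 was below 0 in both. The probes of 1 array share the same pair of pups, and both Dct probes overlap, so these counts are not independent.

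**Figure D2:**
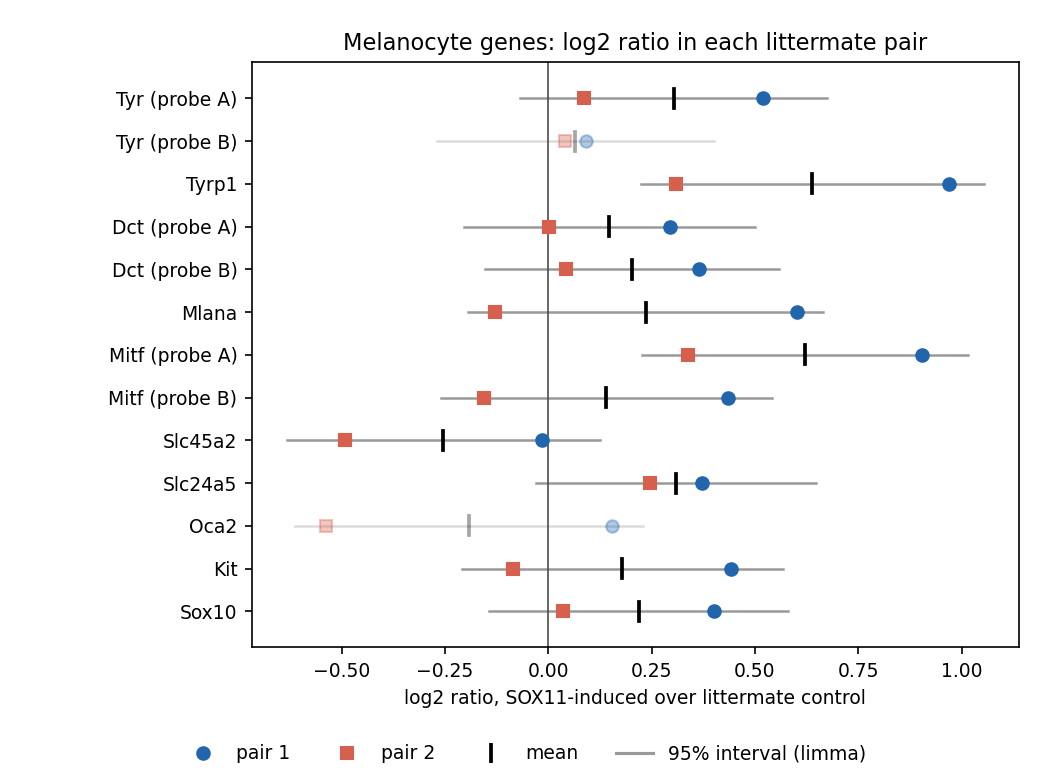
Log2 ratio of SOX11-induced over control (x axis) for each melanocyte probe (y axis), with circles for pair 1, squares for pair 2, black bars for the mean and grey lines for the 95% interval of the limma fit. Pale rows are Tyr probe B and Oca2, which were not well above background in all pups, so their ratios are drawn but not read. In each of the other 11 rows the circle lies to the right of the square. The intervals of Tyrp1 and Mitf probe A alone lie above 0.

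The genes of hair follicle cells, among which the melanocytes of the follicle lie, differed between the pairs in the same direction and by more. Of 13 hair shaft keratins, 13 were above background on both arrays, and their log2 ratios had medians of 2.21 (pair 1) and -0.38 (pair 2). Their summed log2 signal was 15.2 in the control and 17.5 in the SOX11-induced pup of pair 1, and 18.4 and 18.0 in those of pair 2. The control of pair 1 was thus the pup with the lowest hair keratin signal. The 10 inner root sheath genes had medians of 1.61 and -0.32, and the 7 hair matrix and bulb factors above background, of 10, had medians of 0.75 and -0.23. Within these lists Gata3, a regulator of the inner root sheath, fell by 0.76 (adjusted p = 0.0232, limma). Wnt10b, a WNT ligand of the hair follicle, fell by 0.63 (adjusted p = 0.0499, limma), a value at the threshold, where adjusted p-values are likely too small. No gene of these lists rose, and among all probes above background 9.99% had an adjusted p under 0.05. Of the 11 melanocyte probes above background, 4 (both Mitf probes, Sox10 and Kit) were also lowest in the control of pair 1, and Mitf probe B had the order of the hair keratins over all 4 pups. The other 7 probes were lowest in a pup of pair 2. The part of the hair follicle content of each sample in the melanocyte ratios was not tested.

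**Figure D3:**
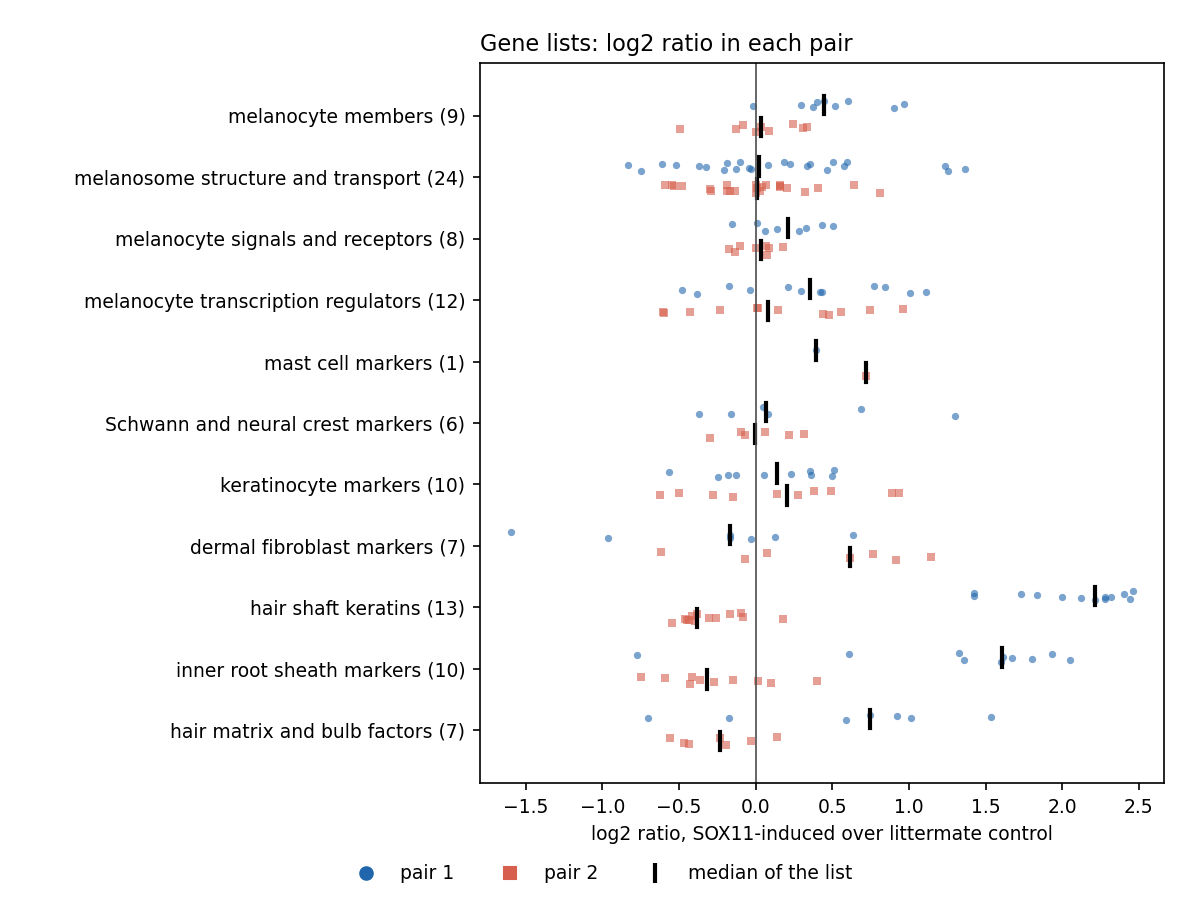
Log2 ratio of SOX11-induced over control (x axis) of each gene above background in 11 gene lists (y axis, number of genes plotted in brackets), with circles for pair 1, squares for pair 2 and black bars for the median of a list in a pair. The hair shaft keratins lie at a median of 2.21 in pair 1 and -0.38 in pair 2, while the melanocyte genes lie at 0.44 and 0.04.

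Other genes of the pathway were counted next. Of 28 genes for melanosome structure and transport, 24 were above background on both arrays, with medians of 0.02 and 0.01 in pairs 1 and 2, and 1 rose and 1 fell, a share near the 9.99% of all probes above background. Rab32, a small GTPase that delivers enzymes to the melanosome and also acts in other cells, rose by 1.02 ± 0.30 (SD, n = 2, adjusted p = 0.00950, limma), with ratios of 1.23 and 0.81. Trpm1, a cation channel gene that MITF activates in melanocytes, was read by 4 probes, of which 1 fell by 0.71 ± 0.17 (SD, n = 2, adjusted p = 0.0344, limma). The other Trpm1 probes had means of 0.15, -0.04 and -0.43, so the probes of this gene disagreed. Pmel, which forms the fibrils on which melanin is laid down, had ratios of 0.59 and -0.30 (mean 0.15 ± 0.63, SD, n = 2, adjusted p = 0.736, limma), with the higher ratio in pair 1 as for Mlana. Of the proteins that tether melanosomes for transport, Rab27a had a mean of -0.52 (adjusted p = 0.117, limma) and Myo5a of 0.07 (adjusted p = 0.819, limma), while Mlph, and the melanosome receptor gene Gpr143, were not above background in any pup.

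Of 14 signals and receptors of melanocytes, 8 were above background on both arrays, with medians of 0.21 and 0.04, and 0 rose or fell. Kitl, the ligand of KIT, had ratios of 0.28 and 0.18 (mean 0.23 ± 0.08, SD, n = 2, adjusted p = 0.420, limma). Edn1, an endothelin that acts on melanocytes, had ratios of 0.43 and 0.08 (adjusted p = 0.390, limma), and Mc1r, the melanocortin receptor, had 0.33 and -0.10 (adjusted p = 0.746, limma). The receptor gene Ednrb was above background in 1 channel of 1 of its probes, and Edn3, Pomc and the agouti gene were not above background in any.

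Of 14 other transcription regulators that act in melanocytes, 12 were above background on both arrays, with medians of 0.36 and 0.08, and 1 rose and 0 fell, which is also near the 9.99% of all probes above background. Snai2, a zinc finger repressor of the neural crest that keratinocytes also express, rose by 1.04 ± 0.10 (SD, n = 2, adjusted p = 0.00575, limma). Its log2 signals were 9.41 and 9.49 in the controls and 10.52 and 10.45 in the SOX11-induced pups. The groups did not overlap, and the pairs gave nearly the same ratio. How many of all probes have groups that lie apart was not counted. Pax3, which acts with SOX10 on Mitf, had means of -0.30 (adjusted p = 0.30, limma) and 0.00 for its probes. The 10 keratinocyte markers had medians of 0.14 and 0.21, with none that rose or fell, against the 9.99% of all probes above background. Of 10 dermal fibroblast markers, 7 were above background on both arrays, with medians of -0.17 and 0.61. Of these 7 genes 1 rose and 1 fell, beside the same 9.99% of all probes above background. Fbln1, an extracellular matrix gene, rose at all 3 of its probes, by 0.62 to 0.80. Its adjusted p ran from 0.0224 to 0.0499 (limma), and 0.0499 was that of the brightest probe. Dcn, which encodes the matrix proteoglycan decorin, fell by 0.79 (adjusted p = 0.0260, limma). The part of dermal cells in the melanocyte values was not tested.

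The ratios of the melanocyte genes were set against the median of all probes above background because another centring moves both. Loess left that median at 0.04, while median centring of all spots moved it to 0.51, and the median of the melanocyte probes from 0.22 to 0.79. Relative to all probes above background, the melanocyte median was 0.18 in the main setting and 0.28 under median centring. By the mean of the pairs, Slc45a2 was below that median, and each of the other 10 probes above it, in all 6 settings. All settings use the same 2 arrays, and the pairs differed. In pair 2 of the main setting, Dct probe A, Mlana, Mitf probe B and Kit were also below the median of that pair. They lay at -0.03, -0.16, -0.18 and -0.11 relative to it.

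**Figure D4:**
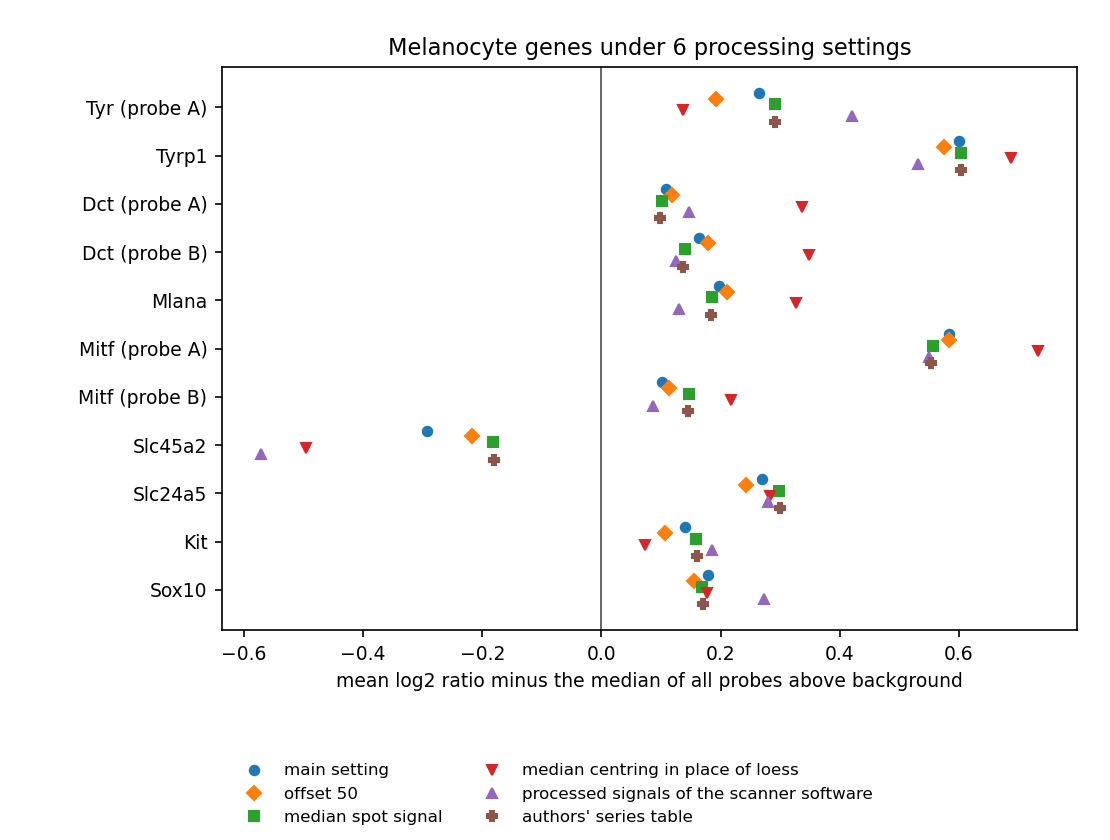
Mean log2 ratio minus the median of all probes above background (x axis) for the 11 melanocyte probes above background (y axis) under 6 processing settings, 1 symbol each. Slc45a2 lies below 0 in every setting and the other 10 probes above it.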

How the data were processed

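The members and gene lists were chosen with earlier results of these data known. The scanner files that the authors deposited hold the intensity of each spot and its local background in each channel, from Agilent Feature Extraction 10.7.3.1 on a G2505C scanner per the file headers, with probe positions on mm9. Their deposited log10 ratio column was used only to check the direction of the ratios. The authors' series table holds log2 ratios and was used as an alternative. A colour swap is described in the study's methods, as are other software and scanner versions, which the labels and headers of these arrays do not show.

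Mean spot brightness was corrected with the median local background by normexp (offset 16) in limma 3.58.1 under R 4.3.3, then normalized by loess within each array, with control spots given no weight. Spots with an outlier flag were left out (194 and 186), and spots of a probe were averaged. A model with an intercept alone was applied to both log2 ratios of each of 55676 probes with moderated variances, and p-values were adjusted over all probes (Benjamini-Hochberg). The prior had 8.34 degrees of freedom and an SD of 0.223. Flipping signs over 2 arrays gives an exact p of at least 0.5, so every adjusted p rests on this prior. On simulated ratios the fit recovered the changes put in, but it overestimated the prior degrees of freedom and called more unchanged probes than the threshold allows, so adjusted p-values near 0.05 are likely too small. A probe was above background in a channel when at least 0.5 of its spots were marked so, and a list was counted with 1 probe per gene, the brightest. Signals per pup were scaled by Aquantile after loess. All probes of the 10 genes were named, with 14 other genes fixed by name and any list gene that passed the test. The mast cell genes Tpsb2 and Cpa3 were named in addition, as those of their list above background in a channel. The number of arrays limits the precision, and the labels call them biological replicates.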

Additional observations from a re-analysis of the deposited data

How the results depend on the processing

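Offset 50 gave 2 melanocyte probes with an adjusted p under 0.05 (Tyrp1 and Mitf probe A) in place of 0, with the share of all probes called going from 4.39% to 7.91%, and median centring in place of loess gave 10, with 33.2% of all probes called. Median centring moved the median log2 ratio of the melanocyte probes to 0.79, with that of all probes above background at 0.51, and turned Slc45a2 from -0.25 to 0.010. Median spot brightness, the processed signals of the scanner software, the authors' table and a restriction to probes above background gave 0 such probes, and no setting gave a probe past a log2 ratio of 1.5. Without 1 pair at a time the median ranged from 0.04, with pair 2 alone, to 0.44, with pair 1 alone, and these values carry no test. A slide or scan block was not run, since both arrays share 1 slide and 1 scan. Each ratio is within a littermate pair, so the pairing is part of every value. Only 2 pairs of pups limit all comparisons, and dim probes such as Tyr probe B and Oca2 have no usable ratio.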
